A study of Mus musculus with 10 samples.

Results

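The comparison described here sets 5 arrays with high Col4a1, Col4a2, Gata6 and Foxa1 against 5 arrays with low levels of the same genes, in mouse embryonic stem (ES) cells. All 10 arrays of the study belong to it. The arrays were grouped by their measured values and not by their induction titles, so the groups are not the study's own. The Col4a1-high arrays are Sox17(-) 4 and 5 and Sox17(+) 1, 4 and 5, and the Col4a1-low arrays are Sox17(-) 1, 2 and 3 and Sox17(+) 2 and 3. The division was made within 2 array sets. Set 2 holds Sox17(+) 2, 3, 4 and 5, and set 1 holds the other 6 arrays. Set 1 therefore gives 3 high against 3 low arrays, and set 2 gives 2 against 2.

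The cells are of KH2, a mouse ES cell line made for doxycycline-inducible transgenes, and the transgene here is V5-tagged Sox17. Arrays titled Sox17(-) are labelled control and arrays titled Sox17(+) are labelled as expressing Sox17-V5, with 48 h of induction in the series design. The treatment field names doxycycline for every sample, and the labels give no dose, sex, passage or clone. Messenger RNA was read on Illumina bead arrays as 1 intensity per probe. Separate cultures are not mentioned for the replicates, so the spread between arrays may be technical. In bulk RNA, fewer cells of a type and less RNA per cell cannot be told apart.

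The grouping cuts across the titles. In set 1 the high arrays are 2 titled Sox17(-) and 1 titled Sox17(+), while set 2 holds arrays titled Sox17(+) only. It lies closer to the numbering of the descriptions, which restarts at title number 4: the high arrays are numbers 4 and 5 of each title plus Sox17(+) 1. Across genes, arrays of one level in one set differed by at least 1.5-fold at 176 to 319 of 10087 genes, arrays of opposite level in one set at 695 to 873, and arrays of different sets at 1801 to 2538. Sox17(+) 1 differed from Sox17(-) 4 at 220 genes and from Sox17(-) 5 at 290, against 722 to 754 from the low arrays of its set.

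The induced gene itself followed the grouping in set 1 and not the titles. Its probe read 32.6, 32.1 and 30.5 on Sox17(-) 1, 2 and 3, 60.6 and 65.3 on Sox17(-) 4 and 5, and 67.3 on Sox17(+) 1. On the low arrays of set 2, Sox17(+) 2 and 3, it read 13.6 and 12.0, and on the high arrays, Sox17(+) 4 and 5, it read 16.65 and 15.01. Sox17 was thus lower on the 4 arrays of set 2, all labelled as expressing the transgene, than on every array labelled control. Whether the probe reads the transgene could not be checked, since its position was not analysed here.

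Collagen IV is the network-forming collagen of basement membranes. Its alpha 1 and alpha 2 chains, from Col4a1 and Col4a2, join into 1 triple helix and are made in bulk by primitive and parietal endoderm, the extraembryonic lineage that lines the blastocyst cavity. Gata6 is the transcription factor that directs the inner cell mass toward that lineage, and Foxa1 is a forkhead pioneer factor of endoderm. Anxa2 encodes annexin A2, a calcium-dependent membrane-binding protein, and Egln3 a prolyl hydroxylase that marks hypoxia-inducible factors for destruction and is itself induced by low oxygen.

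These 6 genes define the grouping, so their values are given as a description. Col4a1 (probe intensities in title order within each group) read 502, 480 and 467 on the low and 3934, 3456 and 3577 on the high arrays of set 1. In set 2 it read 388 and 447.5 on the low and 1825 and 2249 on the high arrays. No high array overlapped a low one, and the high arrays of set 2 stayed below those of set 1. Col4a2 read 182 to 199 on the low and 1303 to 1407 on the high arrays of set 1, and 237 and 244.5 against 1016 and 998 in set 2.

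Gata6 read 67.3, 72.0 and 97.8 on the low arrays of set 1, against 420, 454 and 406 on the high arrays. In set 2 its readings were 66.4 and 69.1 against 171 and 172. The low arrays of the sets were alike in Gata6, and the high arrays of set 2 lay between the low and the high arrays of set 1. Foxa1 read 13.5, 23.8 and 21.9 against 179, 182 and 184.5 in set 1. In set 2 it lay under the background limit of 10.6 on the low arrays, at 4.59 and 2.55, and at 129 and 125 on the high arrays, at least 12.0-fold higher.

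Anxa2 and Egln3 ran the other way, so these markers were lower on the Col4a1-high arrays. Anxa2 read 1053, 1002 and 984.5 on the low and 272, 237 and 263 on the high arrays of set 1. In set 2 it read 1313 and 1402 against 374 and 408. Egln3 read 680 to 758 on the low and 218 to 229 on the high arrays of set 1, and 648 and 633 against 256 and 221 in set 2. A further Egln3 probe was also lower, by 0.93 on the log2 scale in set 1 and by 0.51 in set 2, where it missed the limit of 1.5-fold.

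**Figure D1:**
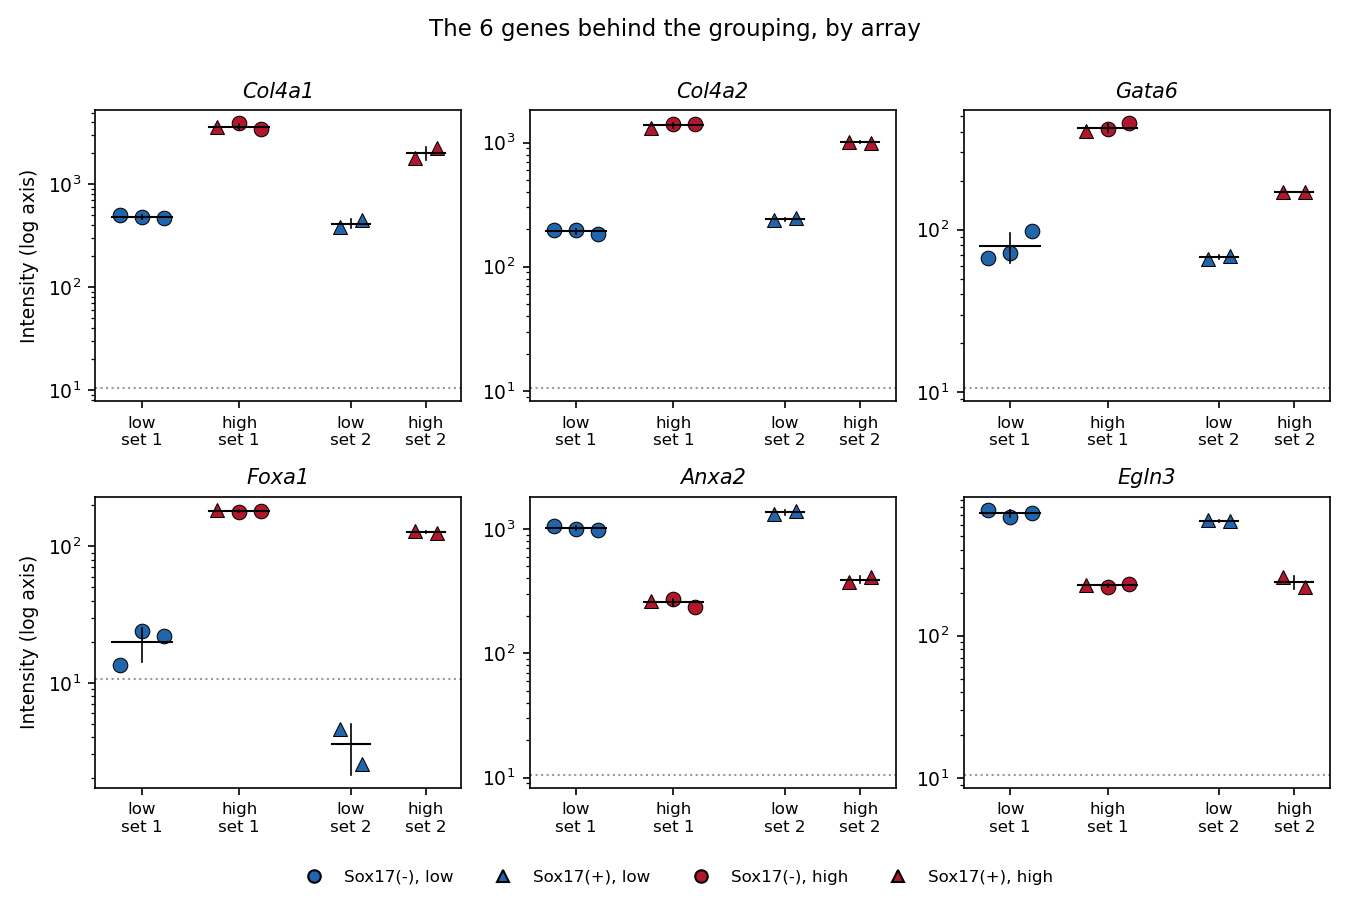
Intensity (log axis) of the 6 genes that define the grouping, on each of the 10 arrays. Circles are arrays titled Sox17(-), triangles arrays titled Sox17(+), blue low and red high. Black bars give the mean and SD of each group of 2 or 3 arrays, and the dotted line the background limit of 10.6. The groups do not overlap within a set for any of the 6 genes, with Col4a1, Col4a2, Gata6 and Foxa1 higher and Anxa2 and Egln3 lower on the high arrays.

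Col4a1 and Col4a2 lie head to head on chromosome 8, and their promoter windows are shown because the 2 genes moved together. In RefSeq's promoter table (build GRCm38.p6, from 250 bases before to 50 after the start) the listed starts lie 21 bases apart and the windows share 78 bases. They were searched on both strands for the GATA words AGATAA and TGATAA, the SOX words ACAAT and ACAAAG and the forkhead words TGTTTAC and TGTTTGC. Neither window holds any of these letters. The first is chr8:11312777-11313076 on the minus strand, the second chr8:11312555-11312854 on the plus strand.
Col4a1: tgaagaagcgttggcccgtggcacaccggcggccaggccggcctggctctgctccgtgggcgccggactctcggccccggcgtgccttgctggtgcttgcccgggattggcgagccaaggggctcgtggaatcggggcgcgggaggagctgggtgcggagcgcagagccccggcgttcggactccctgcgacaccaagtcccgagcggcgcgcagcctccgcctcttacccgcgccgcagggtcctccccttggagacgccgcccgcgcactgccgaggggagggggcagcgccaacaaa
Col4a2: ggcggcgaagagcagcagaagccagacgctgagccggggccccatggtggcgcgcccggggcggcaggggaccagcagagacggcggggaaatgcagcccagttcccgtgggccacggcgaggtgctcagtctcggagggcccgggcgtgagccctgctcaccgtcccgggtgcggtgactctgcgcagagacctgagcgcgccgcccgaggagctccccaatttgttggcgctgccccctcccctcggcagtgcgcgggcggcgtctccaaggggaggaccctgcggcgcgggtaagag

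The Foxa1 window, chr12:57546062-57546361 on the minus strand, is shown as the one richest in these words among the marker promoters searched, and the Gad1 window, chr2:70561879-70562178 on the plus strand, as that of the gene with the second largest difference in log2(intensity + 16). Capitals mark SOX and forkhead words. Foxa1 holds 4 SOX words and 1 forkhead word, and the forkhead word overlaps 2 of the SOX words. Gad1 holds 2 SOX words. Of all 32851 promoters in the table, 18.6% hold a GATA word, 42.9% a SOX word and 8.48% a forkhead word. A match is a description of letters and not a bound site.
Foxa1: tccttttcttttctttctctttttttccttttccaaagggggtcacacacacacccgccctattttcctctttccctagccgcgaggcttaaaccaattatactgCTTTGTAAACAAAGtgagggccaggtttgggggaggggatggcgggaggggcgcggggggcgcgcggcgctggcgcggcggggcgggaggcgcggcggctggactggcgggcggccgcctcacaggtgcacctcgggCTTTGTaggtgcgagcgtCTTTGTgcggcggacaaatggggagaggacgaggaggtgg
Gad1: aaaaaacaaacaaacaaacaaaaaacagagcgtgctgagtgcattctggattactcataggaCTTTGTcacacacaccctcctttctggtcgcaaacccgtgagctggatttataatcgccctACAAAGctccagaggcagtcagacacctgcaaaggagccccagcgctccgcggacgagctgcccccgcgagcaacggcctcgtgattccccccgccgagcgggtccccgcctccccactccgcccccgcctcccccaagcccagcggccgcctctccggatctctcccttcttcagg

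A gene was counted in the shared programme when every high array lay above (or below) every low array within each set and the means differed by at least 1.5-fold in each set, on the scale of log2(intensity + 16). Of 10087 genes tested, 124 were higher on the Col4a1-high arrays of both sets (1.23%) and 134 were lower (1.33%). At the level of probes the counts were 163 (1.09%) and 168 (1.12%) of 14985. Since the arrays were chosen by such values, these counts describe the grouping and carry no test. At 2-fold in each set 46 genes were higher and 33 lower. Without Sox17(+) 1, the only high array with a title number under 4, the counts were 127 and 137, among them 120 of the 124 and 127 of the 134.

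The mean of the 2 set differences had a median of 0.98 over the 124 higher genes, -0.90 over the 134 lower genes and -0.01 over all genes. The programme was spread over the chromosomes. Higher genes made up 0.446% to 3.25% of the tested genes of an autosome or the X, with the highest share on chromosome 18 (8 of 246), and the median difference of a chromosome lay between -0.04 and 0.02. Of 71 tested odorant, vomeronasal and taste receptor probes, which mostly carry background, 0 were higher and 0 lower by the rule. At the shares of all probes, 1.09% and 1.12%, so few probes could hold 0 anyway, so this count does not check the rule. Among 55 shared genes with several tested probes, every probe had the same sign in both sets for 49 and every probe passed the rule for 28.

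**Figure D2:**
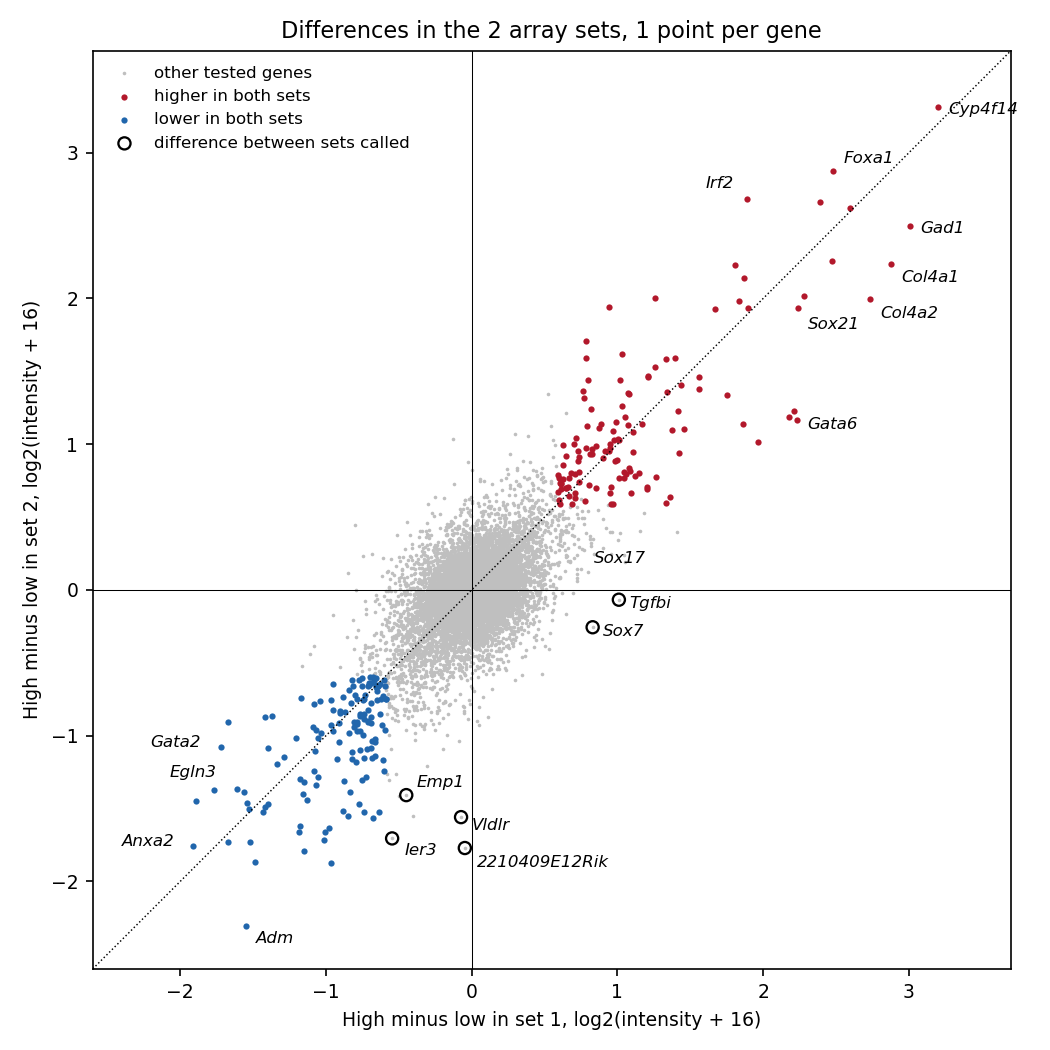
Difference between high and low arrays in set 1 (horizontal) and set 2 (vertical) on the log2(intensity + 16) scale, with 1 point per tested gene. Red points are the 124 genes higher and blue points the 134 genes lower in both sets, and rings mark genes whose difference between the sets passed limma's test. The coloured points lie along the dotted line of equal differences, which is partly built in, since the rule asks for at least 1.5-fold in the same direction in each set. All 6 rings lie below the line.

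The largest difference on this scale was that of Cyp4f14, a cytochrome P450 of fatty acid and eicosanoid oxidation. It lay under the background limit on all 5 low arrays and read 143, 162 and 137.5 on the high arrays of set 1 and 153 and 134 on those of set 2. It was at least 13.9-fold higher in set 1 and at least 13.5-fold in set 2. Its rank depends on the pseudocount: with 64 in place of 16 its mean difference was 1.69, below those of Col4a2 (2.15) and Gad1 (2.11). Several of the other leading genes also went from near background to a clear signal. Olfml3, a secreted olfactomedin-domain protein, was under the limit on all 5 low arrays, and its high arrays read 124 to 139 in set 1 and 79.3 and 85.8 in set 2 (at least 12.3-fold and 7.78-fold higher). C1qtnf2, a secreted C1q-related protein, read 4.64 to 14.1 and 1.61 to 2.51 on the low arrays, and 73.4 to 94.2 and 61.1 to 66.5 on the high ones. Dgkk, a diacylglycerol kinase gene on the X chromosome, read 12.0 to 14.9 against 122 to 138 in set 1, and under the limit against 37.9 and 77.6 in set 2.

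Gad1, which makes GABA from glutamate, read 55.2, 34.1 and 37.8 on the low and 435, 430 and 482 on the high arrays of set 1. In set 2 it read 63.2 and 58.6 against 418 and 416. Its difference was 3.01 ± 0.12 (log2, SE) in set 1 and 2.49 ± 0.15 in set 2, and a further probe gave 3.05 and 2.17. Slc32a1, which loads GABA into vesicles, read 169 to 184 against 616 to 726 in set 1 and 85.6 to 90.5 against 463 to 481 in set 2. Neither gene's high and low arrays overlapped.

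Sox21, a SoxB transcription factor related to Sox2, was bright on all arrays and several times brighter on the high ones. It read 1005, 1012 and 1024 against 4706, 4811 and 4989 in set 1, and 762 and 798 against 3185 and 2862 in set 2. All 3 of its tested probes passed the rule. Irf2, an interferon regulatory factor, read 20.7 to 32.8 against 134 to 149 in set 1, and 12.0 and 21.7 against 197 and 189 in set 2. Irf2 differed more in set 2 (2.68 ± 0.16) than in set 1 (1.89 ± 0.13), though that contrast did not pass the test (limma adjusted p = 0.186). Fam167a differed by 2.39 and 2.66, and Nrep, a neuronal regeneration-related protein gene, by 1.83 and 1.99. Pga5, a pepsinogen gene, differed by 1.89 and 1.94. Gpat3, an acyltransferase of triglyceride synthesis, was at least 10.5-fold higher in set 1, and in set 2 read 34.3 and 25.4 against 212 and 192.

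Among the genes of lower intensity on the Col4a1-high arrays, Adm, the hypoxia-induced vasodilator peptide adrenomedullin, had the largest difference on this scale. It read 38.8, 32.45 and 44.6 on the low arrays of set 1 and 101 and 97.8 on those of set 2. On all high arrays of set 1 it was under the background limit, as on Sox17(+) 4, and it read 12.0 on Sox17(+) 5. Adm was at least 3.61-fold lower on the high arrays in set 1 and at least 8.83-fold lower in set 2. With a pseudocount of 64 its mean difference was -0.91, smaller in size than those of Anxa2 (-1.695) and Egln3 (-1.33). Upp1, which splits uridine, read 7765 to 8459 on the low and 2415 to 2731 on the high arrays of set 1, and 9674 and 9566 against 3171 and 2638 in set 2. Upp1 was among the brightest genes of the programme, and all 3 of its probes passed the rule with differences of -1.49 to -1.79.

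Prps2, which makes the ribose donor for nucleotide synthesis, differed by -1.52 and -1.73, and Plekha2, a phosphoinositide-binding adaptor, by -1.53 and -1.50. Bhlhe40, a transcriptional repressor of the circadian and hypoxia responses, read 1036 to 1130 against 323 to 381 in set 1 and 1779 and 1687 against 627 and 611 in set 2. Pmaip1, the p53 target Noxa, differed by -1.56 and -1.38. Zic2, a zinc finger factor of epiblast and neural plate, read 73.0 to 76.1 against 2.26 to 18.1 in set 1, and 33.0 and 53.9 against values under the limit in set 2. Nxph4, a neurexophilin, was at least 6.85-fold lower in set 1 and at least 3.28-fold in set 2. Ccno, a cyclin-related gene of multiciliated cells, was at least 2.95-fold and 5.05-fold lower, and Slitrk5, a neuronal membrane protein gene, differed by -1.42 and -1.49.

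The hypoxia and glycolysis list leaned lower. Of 26 tested, 6 were lower in both sets by the rule and 0 higher, beside 1.33% and 1.23% of all genes, and 5 of 26 had a mean difference above 0. The list's median was -0.37, against -0.01 over all genes. The 6 were Adm, Ddit4, Ndrg1, Pfkp, Aldoc and Slc2a1. Ddit4, a stress-induced inhibitor of mTOR, read 1254 to 1473 against 449 to 560 in set 1, and 1450 and 1703 against 528 and 543 in set 2. Ndrg1, a hypoxia-responsive differentiation gene, differed by -1.67 ± 0.14 and -0.91 ± 0.17. The glycolytic enzymes Pfkp (-0.95 and -0.65) and Aldoc (-0.84 and -0.68) were measured at smaller differences. Slc2a1, a glucose transporter, read 14600 to 15290 against 9471 to 9977 in set 1, and 14120 and 14600 against 8483 and 10280 in set 2. The lactate exporter Slc16a3 differed by -0.97 and -0.93 at its brightest probe, but by -0.07 and 0.06 at another.

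Not every hypoxia gene met the rule, and some were not lower. Ldha differed by -0.52 and -0.60, Tpi1 by -0.64 and -0.56, Hk2 by -0.41 and -0.46 and Egln1 by -0.46 and -0.52, without meeting the rule. Vegfa differed by -0.21 and -0.57. Gapdh (-0.03 and -0.02) and Pfkl (0.07 and 0.07) were nearly level, and Car9, carbonic anhydrase IX and a hypoxia-inducible factor target, differed by 0.29 and -0.08. With each array left out in turn, 5 to 7 members were lower and 0 higher. Oxygen, density and time in culture are not in the labels, and their part in this result was not tested.

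The Egln3 and Anxa2 promoters are printed with the core of the hypoxia response element, ACGTG on either strand, in capitals, because these 2 markers were lower beside the hypoxia list. This word was chosen after the values had been seen, and it occurs in 19.6% of all promoters. Egln3 (chr12:54203825-54204124, minus strand) holds it once and Anxa2 (chr9:69453433-69453732, plus strand) 2 times. The Adm window holds 0.
Egln3: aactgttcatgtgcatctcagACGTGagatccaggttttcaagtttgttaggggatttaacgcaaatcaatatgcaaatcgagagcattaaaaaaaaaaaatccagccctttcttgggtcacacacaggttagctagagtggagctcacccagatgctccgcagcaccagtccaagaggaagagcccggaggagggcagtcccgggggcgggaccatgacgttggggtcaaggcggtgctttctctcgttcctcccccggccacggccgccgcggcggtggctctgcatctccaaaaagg
Anxa2: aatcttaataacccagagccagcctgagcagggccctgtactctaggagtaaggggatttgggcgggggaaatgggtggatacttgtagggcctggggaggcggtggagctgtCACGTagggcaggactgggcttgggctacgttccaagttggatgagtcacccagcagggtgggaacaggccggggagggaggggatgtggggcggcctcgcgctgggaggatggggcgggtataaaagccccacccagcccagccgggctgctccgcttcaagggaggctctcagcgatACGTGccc

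Whether the high arrays bear an endoderm signature was read from lists of lineage markers. The counts of these and all later lists stand beside 1.23% higher and 1.33% lower among all tested genes. The label fits in part only, and the arrays are therefore called by Col4a1 and by no cell type. Of 11 primitive endoderm regulators and receptors tested, 2 were higher and 0 lower. Foxq1, a forkhead gene, read 57.5 to 60.0 against 303 to 358 (set 1) and 9.16 and 14.8 against 43.4 and 55.8 (set 2). Pdgfra, the receptor that marks primitive endoderm, read 36.5 to 47.3 against 207 to 232 in set 1, and 15.5 and 9.885 against 45.8 and 38.05 in set 2. Gata4, the partner of Gata6, differed by 0.17 and 0.39 and Dab2, an endocytic adaptor of this lineage, by 0.56 and 0.04. The list's median was 0.18. The summed intensity of its 11 members was 8838 to 9398 on the low and 10310 to 11500 on the high arrays of set 1. In set 2 it was 8664 to 8774 against 9445 to 9898. Foxq1 and Pdgfra, at no more than 358 and 232, make up little of these sums, which rest on brighter members. In set 1, 10 of 11 members were above 0 (median 0.17), and in set 2, 6 of 11 (median 0.02).

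Of 16 parietal endoderm genes tested, 4 were higher and 3 lower. Lama1, the laminin alpha 1 chain, read 721 to 860.5 against 2951 to 3007 in set 1 and 1172 and 1136 against 2804 and 2331 in set 2. Srgn, a secretory granule proteoglycan (1.27 and 0.77), and Tfpi, an inhibitor of coagulation (1.01 and 0.77), were higher along with Pdgfra. The 3 lower members were the simple keratins Krt8, Krt18 and Krt19, which parietal endoderm shares with trophectoderm. Sparc, a matrix protein abundant in that tissue, differed by 0.22 and -0.24. The summed intensity of the 16 members was 7432 to 7648 on the low and 12010 to 13090 on the high arrays of set 1, and 8345 to 8575 against 9814 to 9862 in set 2. Lama1 alone went from a mean of 1154 to 2567 in set 2, so that sum does not show a rise across the list. In set 1, 11 of 16 members were above 0 (median 0.22), and in set 2, 6 of 16 (median -0.11). A part of parietal endoderm cells in the cultures was not tested.

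The lists of the other endoderm types are too short for a count of 0 or 1 to show scarcity. Of 12 visceral endoderm genes tested, 1 was higher (Rhox5, an X-linked homeobox gene, 1.20 and 0.71) and 1 lower (Cdx2, better known from trophectoderm). Apoe differed by 0.86 and 0.55 without meeting the rule, and Afp, Ttr and Apob were too dim to be tested. The summed intensity of the 12 visceral members was higher on the high arrays. It was 4067 to 4247 against 5143 to 5337 in set 1 and 5577 to 5798 against 5978 to 6192 in set 2. Such a sum weighs bright members most, and Rhox5 alone went from a mean of 965 to 1590 in set 2. Across the list, 3 of 12 members were above 0 in set 1 and 2 in set 2, with medians of -0.19 and -0.28. The higher sum is therefore not a rise of the list. Of 10 definitive endoderm genes, 0 were higher and 0 lower. Foxa2, Gsc and Cer1 were too dim to be tested there, and Otx2 differed by 1.04 in set 1 and 0.24 in set 2. The definitive endoderm sums overlapped in set 1, at 16210 to 17890 on the low and 16890 to 18130 on the high arrays. In set 2 they were lower on the high arrays, at 20120 to 21110 against 18710 to 19280.

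**Figure D3:**
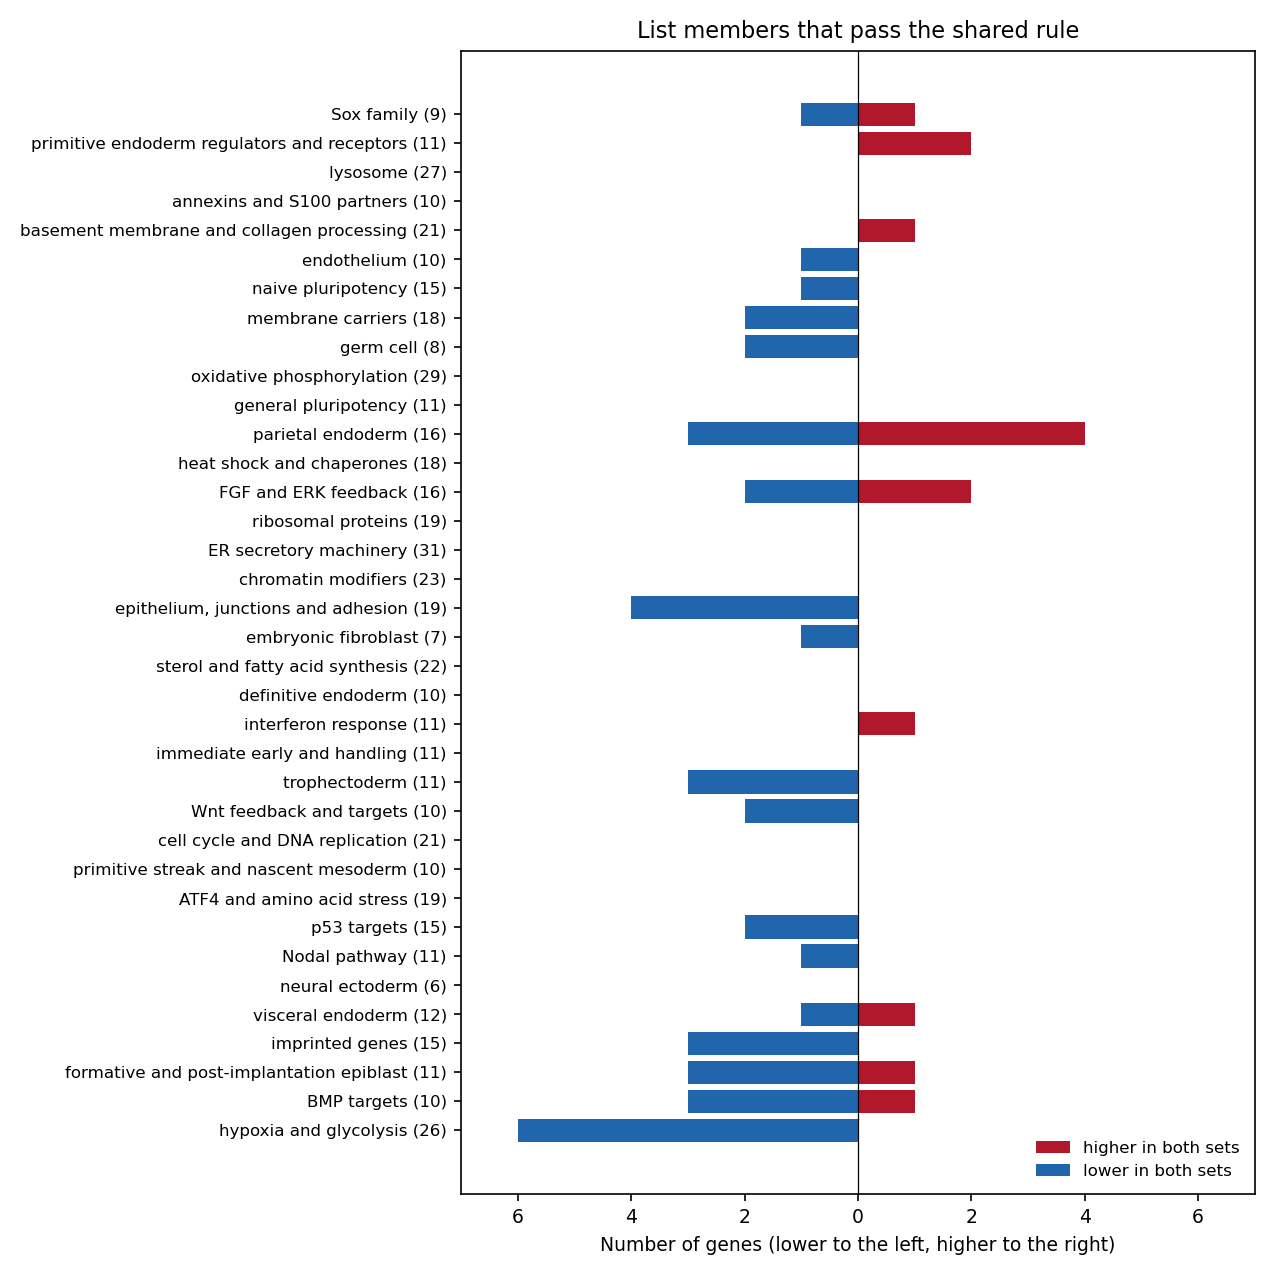
Number of tested members of each gene list that were higher (red, to the right) or lower (blue, to the left) on the Col4a1-high arrays of both sets, with the number tested in parentheses. Lists are ordered by the median of their mean difference, highest at the top. The hypoxia and glycolysis list has the most lower members (6) and the parietal endoderm list the most higher members (4).

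Pluripotency genes were close to level. Of 15 naive pluripotency genes tested, 0 were higher and 1 lower, and of 11 general pluripotency genes 0 were higher and 0 lower. Nanog differed by -0.05 and 0.08, Klf4 by -0.12 and -0.10, Esrrb by 0.16 and 0.15 and Pou5f1, which encodes Oct4, by 0.16 and 0.43. Dppa3, a maternal factor of naive cells, differed by 0.56 and 1.03 without meeting the rule. The lower gene was Fgf4, the signal by which epiblast cells drive their neighbours into primitive endoderm. Fgf4 read 282 to 297 against 182 to 192 in set 1, and 196 and 197 against 119.7 and 101.5 in set 2.

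Of 11 formative and post-implantation epiblast genes, 3 were lower and 1 higher, with a median of -0.35. Zic2, Pou3f1 and Lef1 were lower. Pou3f1, the POU factor Oct6, read 331 to 354 against 176 to 208 in set 1, and 374 and 428 against 177 and 176 in set 2. Lef1, a Wnt-responsive factor, was at least 2.70-fold and 2.00-fold lower. Sall2, a zinc finger factor, was the higher member (0.63 and 0.76).

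BMP targets split by gene. Of 10 tested, 1 was higher and 3 lower, with a median of -0.35. Id1 and Id2, inhibitors of bHLH factors, read 547 to 567 and 219 to 283 on the low arrays of set 1, against 225 to 256 and 78.5 to 86.6 on the high arrays. In set 2 Id1 differed by -0.74 and Id2 by -0.87. Id4, a relative, was higher by at least 4.05-fold and 5.18-fold, from readings of at most 12.4 on the low arrays to 38.2 to 56.2 on the high ones. Gata2, a GATA factor of trophoblast and blood, was the third lower target (-1.72 and -1.08). Id3 differed by -0.11 and -0.25. A further Id2 probe gave -0.67 and -0.03.

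In the FGF and ERK list, 2 of 16 were higher and 2 lower. Dusp4, a phosphatase of ERK in the nucleus, read 266 to 308 against 638 to 760 in set 1 and 326 and 312 against 919 and 894 in set 2, though a further probe gave 0.35 and 1.07. Fgfr2, an FGF receptor of extraembryonic cells, differed by 0.67 and 0.76. Myc (-0.76 and -0.97) and Fgf4 were lower. The common ERK feedback genes Dusp6 (-0.03 and -0.08) and Spry4 (0.17 and 0.13) were nearly level. In the Nodal list, 1 of 11 was lower: Lefty2, a Nodal inhibitor, read 1143 to 1201 against 596 to 638 in set 1 and 1687 and 1605 against 819 and 762 in set 2. Its relative Lefty1 (-0.57 and -0.79) and the coreceptor Tdgf1 (-0.56 and -0.79) missed the rule, and Nodal differed by -0.18 in each set. In the Wnt list, 2 of 10 were lower, Ccnd2, a D-type cyclin (-1.15 and -1.32), and Lef1.

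Some genes of trophectoderm and simple epithelium were lower. Of 11 trophectoderm genes tested, 3 were lower (Gata2, Dlx3 and Cdx2) and 0 higher, with a median of -0.10. Cdx2 read 11.4 to 19.4 against values under the limit in set 1, and 43.9 and 38.5 against 13.5 and 15.3 in set 2. Dlx3, a homeobox gene of placenta and skin, read 74.1 to 82.2 against 26.2 to 29.6, and 120 and 122 against 57.8 and 69.5. Tfap2c (0.49 and 0.55) and Tead4 (0.63 and 0.54), which act early in trophectoderm, differed the other way without meeting the rule. The summed intensity of the 11 members was higher on the high arrays, at 4188 to 4377 against 5241 to 5428 in set 1 and 4217 to 4361 against 5239 to 5700 in set 2. This sum weighs bright members most, and 4 of 11 members were above 0 in set 1 and 5 in set 2. Of 19 genes of epithelium, junctions and adhesion, 4 were lower (Krt8, Krt18, Krt19 and the desmosomal plakophilin Pkp2) and 0 higher. Krt8 read 441 to 467 against 264 to 283, and 962 and 922 against 381 and 496. Cdh1, E-cadherin, differed by 0.04 and -0.02.

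Among imprinted genes, expressed from 1 parental copy, the members that passed were lower. Of 15 imprinted genes tested, 3 were lower and 0 higher: Dlk1, a Notch-related inhibitor of differentiation, Cdkn1c, the cell cycle inhibitor p57, and Nnat, neuronatin. Dlk1 read 91.2 to 99.98 against 19.8 to 28.7 in set 1 and 99.3 and 118 against 11.8 and 25.98 in set 2. Cdkn1c read 1561 to 1647 against 546 to 661.5 and 1044 and 925 against 391 and 303. Peg3 differed by 0.39 and 0.62 without meeting the rule. Of 15 p53 targets, 2 were lower (Pmaip1 and Cdkn1a, the cell cycle inhibitor p21, -0.65 and -0.76), while Mdm2 differed by -0.07 and -0.20. The other 2 Cdkn1a probes missed the rule (-0.545 and -0.51, and -0.32 and -0.615).

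Further lists held few members of the programme. Taf7l and Tex11, X-linked genes of spermatogenesis, were 2 lower of 8 germ cell genes. The endothelial list had 1 lower of 10, Sox18 (-1.005 and -1.66), the fibroblast list 1 lower of 7, Thy1 (-0.73 and -0.72), with summed intensities of 642 to 746 against 532.5 to 578 in set 1, and the interferon list 1 higher of 11, Ifitm1 (1.56 and 1.46), a membrane protein of ES and germ cells. No member passed in either direction among 31 genes of the ER secretory machinery, 27 of the lysosome, 29 of oxidative phosphorylation, 21 of the cell cycle and DNA replication, 23 chromatin modifiers, 22 of sterol and fatty acid synthesis, 19 ribosomal proteins, 19 of ATF4 and amino acid stress, 18 chaperones, 11 immediate early genes, 10 of primitive streak, 10 annexins and S100 partners other than Anxa2, and 6 of neural ectoderm. Asns, in the ATF4 list, came nearest, at 0.55 in each set, and its 2 other probes passed. None of 9 listed genes of the two-cell-like state was bright enough to be tested.

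At the edge of the rule, Gpx2 was the last gene counted as higher, with a smaller set difference of 0.59, and Tnfsf11 the first left out, with 0.583. On the other side Npy4r, at -0.587, was counted and Mxra7, at -0.585, fell just short of 1.5-fold.

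The sets were then compared with each other. By the same rule applied to 1 set alone, 222 genes were higher and 201 lower in set 1, and 223 higher and 339 lower in set 2. The 124 shared higher genes are 55.9% of the first set's higher genes and 55.6% of the second's, and the 134 shared lower genes are 66.7% and 39.5%. No gene passed in opposite directions (0 each way). Across genes, which are not independent replicates, the differences of set 1 and set 2 correlated with Pearson's r of 0.66 and Spearman's rho of 0.46. For the shared genes the smaller of the 2 set differences had a median of 0.83 of the larger. The rule asks for at least 1.5-fold in both sets, so it favours genes with alike differences.

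Whether the difference itself changed between sets was tested with limma over the 4 groups of arrays. Set 2 holds only arrays titled Sox17(+), and set 1 is titled Sox17(-) apart from Sox17(+) 1. A difference between sets therefore cannot be told apart from one between titles. Level likewise follows the numbering of the descriptions apart from Sox17(+) 1, so these cannot be told apart either. Of 10087 genes, 6 were called (0.0595%) with a more negative difference in set 2, and 0 (0%) with a more positive one. They correspond to 8 of 14985 probes, beside 1729 probes at an unadjusted p under 0.05. Other settings called probes in the positive direction too: 20 of 118 with a pseudocount of 64, 14 of 121 with an intensity trend, 11 of 35 without the filter, 3 of 17 with a pseudocount of 4 and 1 of 12 with a stricter background limit. The groups were chosen by measured values, so the spread within them may be too small. The count was 0 by limma without Sox17(-) 2 or 4 or without Sox17(+) 2, 3, 4 or 5 (1426 to 1990 probes at an unadjusted p under 0.05), 2 without Sox17(-) 1, Sox17(-) 3 or Sox17(+) 1, and 5 without Sox17(-) 5. Leaving out an array of set 2 leaves 1 array in its group, which is then assumed to vary like the other groups. Without Sox17(+) 1 the called probes were those of 2210409E12Rik and Sox7.

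Sox7 and Tgfbi were higher on the high arrays in set 1 and not in set 2. Sox7, a SoxF factor and relative of Sox17 in primitive endoderm, read 116, 109.8 and 107 against 215.5, 225 and 190.3 in set 1. In set 2 it read 72.3 and 76.5 against 60.2 and 59.2. The difference between sets was -1.09 ± 0.13 (limma adjusted p = 0.0269), and both its probes passed. Tgfbi, a secreted matrix protein induced by TGF-beta, read 377 to 415 against 763 to 887 in set 1 and 398 and 381 against 398 and 346 in set 2 (-1.08, limma adjusted p = 0.0319). A further Tgfbi probe did not pass (limma adjusted p = 0.182).

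The other 4 were lower on the high arrays mainly in set 2. Vldlr, the very low density lipoprotein and reelin receptor, read 334 to 365 against 280 to 377 in set 1, where the groups overlapped, and 77.3 and 100.3 against 19.8 and 18.95 in set 2 (limma adjusted p = 0.0279, and 0.0617 and 0.131 at its 2 other probes). The uncharacterised gene 2210409E12Rik read 112 to 136 against 110.5 to 136 in set 1 and 268 and 236 against 68.5 and 56.6 in set 2 (limma adjusted p = 0.0182). Emp1, an epithelial membrane protein, differed by -0.45 ± 0.07 in set 1 and -1.41 ± 0.08 in set 2 (limma adjusted p = 0.0269). Ier3, an early response gene of survival signalling, differed by -0.55 ± 0.10 and -1.71 ± 0.12 (limma adjusted p = 0.0496).

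**Figure D4:**
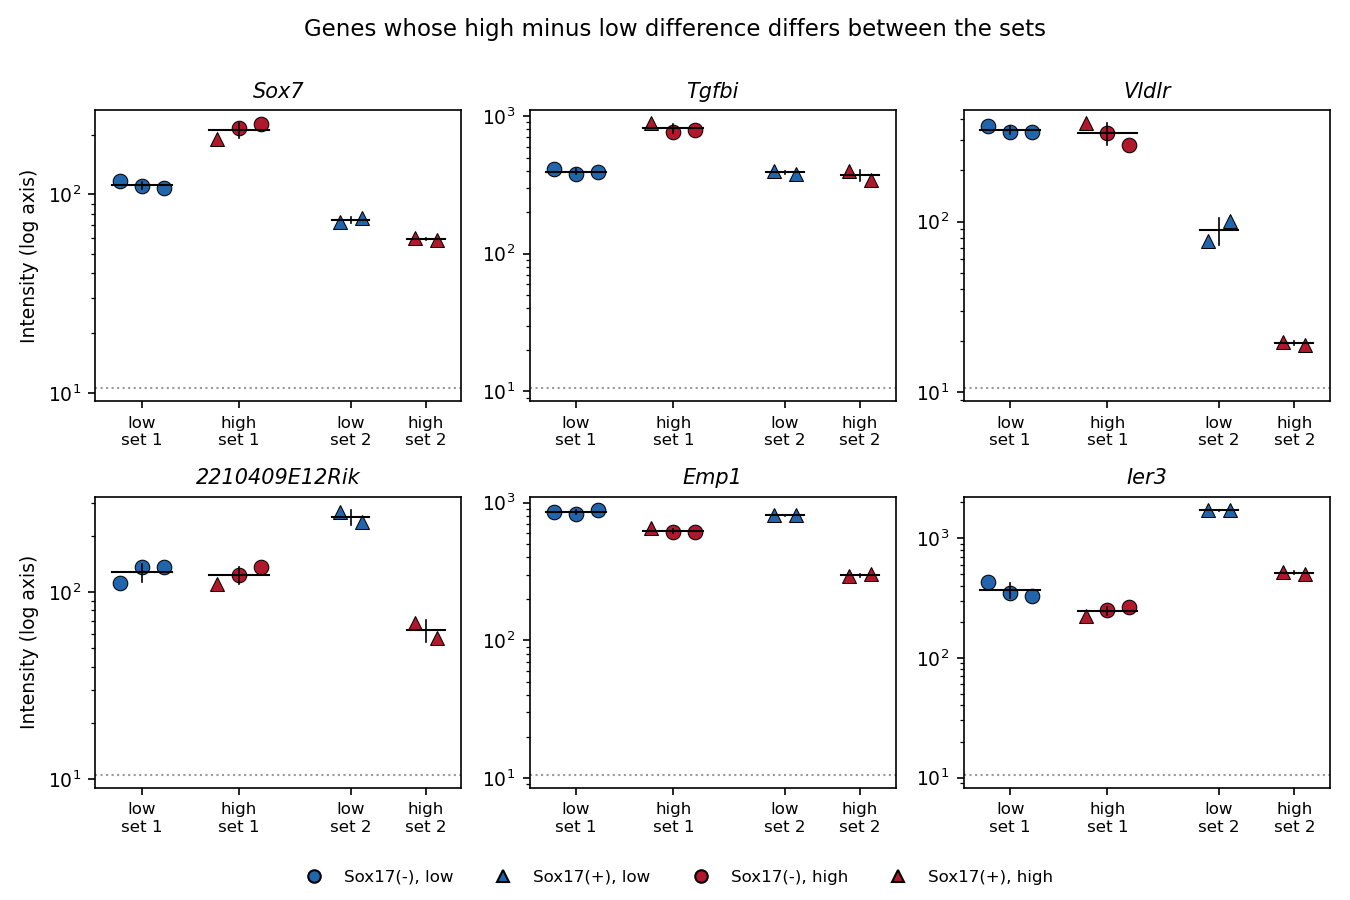
Intensity (log axis) on each array of the 6 genes whose difference between high and low arrays itself differed between the sets by limma. Symbols, bars and the dotted line are as in the plot of the grouping genes. Tgfbi separates the levels in set 1 only and Vldlr and 2210409E12Rik in set 2 only, while Sox7 is higher on the high arrays of set 1 and lower on those of set 2.

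None of the 258 shared genes was called for a difference between sets, beside 0.0595% of all genes. The shared rule favours genes with alike differences, so this count is a description only. Of the grouping genes, whose differences are given as a description, Col4a2 (2.73 ± 0.07 and 2.00 ± 0.09) and Gata6 (2.23 ± 0.11 and 1.16 ± 0.14) had larger values in set 1. Lama1 differed by 1.86 and 1.14 (limma adjusted p = 0.133). Hapln4, a hyaluronan and proteoglycan link protein gene named after its values were seen, had the larger difference in set 2 (-0.85 and -1.55, limma adjusted p = 0.0782). Foxq1 and Pdgfra had a low array under the background limit in set 2, where they were at least 3.93-fold and at least 3.26-fold higher, so their sets were not ranked. For Sox17 the differences were 0.75 ± 0.07 and 0.145 ± 0.09 (limma adjusted p = 0.118).

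Basement membrane genes showed the sets' difference as a list. The list was drawn up without Col4a1 and Col4a2, and 21 members were tested. All 21 had a larger (or less negative) difference in set 1 than in set 2, beside 49.8% of all tested genes, and 0 of them passed the test between sets. In set 1, 18 of 21 were above 0 and the median was 0.31, while in set 2, 7 were above 0 and the median was -0.14. Hspg2, the heparan sulfate proteoglycan perlecan, differed by 1.00 and 0.34, Lamc1 by 0.70 and 0.22, Lamb1 by 0.65 and -0.16 and Nid1, the linker nidogen, by 0.56 and -0.14. Lama1 alone passed the shared rule. The prolyl and lysyl hydroxylases P4ha1 (-0.25 and -0.96), P4ha2 (-0.28 and -0.89) and Plod2 (-0.48 and -0.75), which are hypoxia-responsive enzymes of collagen maturation, were below 0 in each set.

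**Figure D5:**
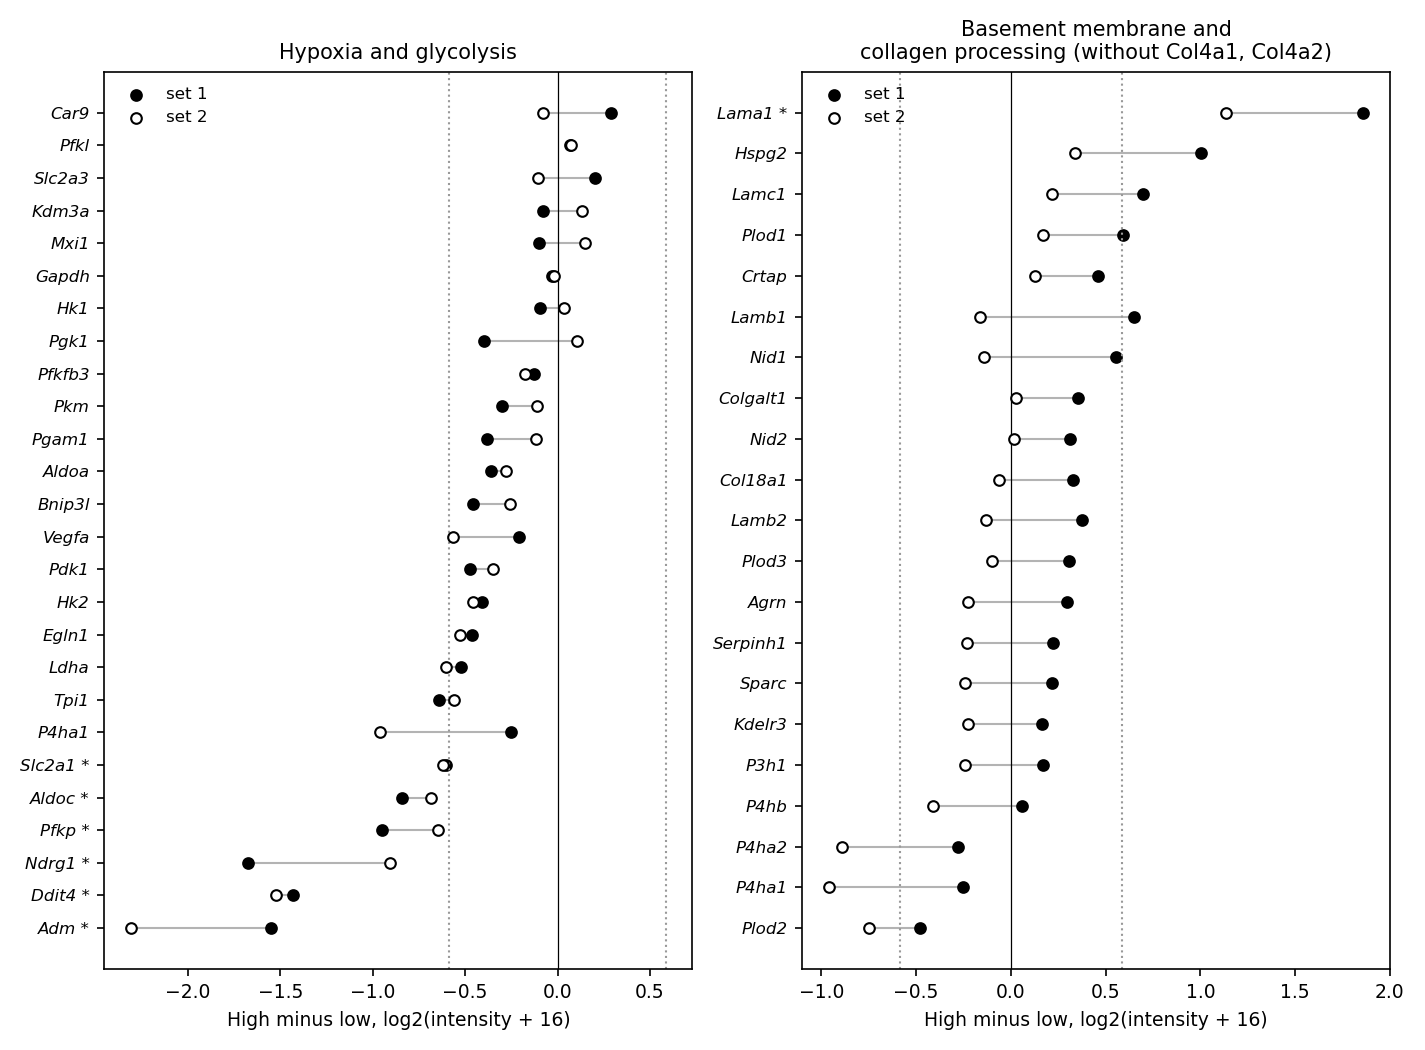
Difference between high and low arrays (horizontal, log2(intensity + 16) scale) in set 1 (filled) and set 2 (open) for each tested member of the hypoxia and glycolysis list and of the basement membrane list. Dotted lines mark 1.5-fold in each direction, and stars mark genes that pass the shared rule. In the basement membrane list every filled point lies to the right of its open point, and in the hypoxia list most points lie left of 0 in each set.

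Several other lists leaned the same way as the basement membrane list. Of 31 genes of the ER secretory machinery, 27 had the larger difference in set 1, with medians of 0.12 and -0.14. Hspa5, the ER chaperone BiP, differed by 0.43 and -0.39, Xbp1, a transcription factor of secretory cells, by 0.69 and 0.37. Of 27 lysosome genes, 22 had the larger difference in set 1 (medians 0.26 and 0.07), among them Grn, progranulin (0.45 and -0.03), and Psap, the precursor of the saposins (0.48 and 0.005). Of 16 parietal endoderm genes 14 did, and of 12 visceral endoderm genes all 12. The parietal list shares Lama1, Lamb1 and Lamc1 with the basement membrane list, so its count partly repeats that one. The lean was not limited to secretory or endoderm lists: 16 of 18 membrane carriers (medians 0.21 and -0.11), 9 of 10 endothelial, 9 of 11 Nodal and 5 of 6 neural ectoderm genes had the larger or less negative difference in set 1. The hypoxia and glycolysis list was nearer even, at 11 of 26, with medians of -0.39 and -0.32. Other lists leaned the opposite way. The larger or less negative difference lay in set 1 for 4 of 21 cell cycle and DNA replication genes and 5 of 18 chaperones. The same held for 3 of 10 primitive streak and 9 of 29 oxidative phosphorylation genes. The genes of a list share the same 10 arrays, so these counts are descriptions.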

How the data were processed

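Total RNA of 10 samples was read on Illumina bead arrays. The deposited table holds linear intensity values per probe, background-subtracted and brought to one scale by the authors, as judged from the values: 25.5% lie below 0 and the 75th percentile is 250 on every array. Per the labels, cRNA was made with the Ambion MessageAmp kit; which software made the values is not given in the sources. A second deposited table of signals and detection p-values without normalization, with 20 columns, was not used here because its column names match no sample label.

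Values were analysed as log2(intensity + 16) after raising those under 0 to 0, which understates the change of dim genes. Values below 0, mirrored, gave a background SD of 6.45 and a limit of 10.6. A probe was tested if above it on at least 5 of 10 arrays (14985 of 25697 probes, 10087 genes), and a gene was represented by its brightest probe. Names came from GEO's platform annotation, updated through Entrez identifiers (23962 of 25697 probes); 23978 probes carry 1 symbol, 0 several and 1719 none. Where a group's mean or at least 50% of its arrays lay under the limit, the fold is a lower bound computed without the 16. High against low is a description with no test, since measured values made the groups. The difference between sets was tested with limma 3.58.1 under R 4.3.3 (moderated linear model on 4 groups, two-sided), adjusted by Benjamini-Hochberg over all tested probes at 0.05, and the code was tested on simulated data. SE values come from that fit.

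The members, gene lists and rules were chosen with earlier results of these data known. Genes named are the 6 markers and Sox17, the 15 largest differences in each direction, up to 4 passing members per list or its 2 brightest, the genes called between sets and those at the limit; other members of a list are named for comparison and were chosen after their values were seen. RefSeq's promoter table held 68.5% of the higher and 72.4% of the lower genes, under 80%, so motif shares over the programme would be void and are not given. For arrays, their number limits the precision. Alternatives were other pseudocounts, filters, scalings, probe rules, fits and each array left out. Figures used matplotlib 3.10.9 and Python 3.11.15.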

Additional observations from a re-analysis of the deposited data

Results flagged for a closer look

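Among 214 groups of 5 high or 5 low arrays checked for named genes, 9 had an array far from the others, and chance gives about 1 in 20. Each such group pools both sets. On Sox17(+) 5, Adm (12.0), Ifitm1 (581), Lama1 (2331) and Plekha2 (287) stood apart among the high arrays, and on Sox17(+) 4, Slc16a3 (39.6) and Atp5b (20350) did. Among the low arrays, Gata6 was highest on Sox17(-) 3 (97.8), Cdkn1a lowest on Sox17(+) 2 (400.4), and Rps2 highest on Sox17(+) 2 (24580), which is the top value of the array.

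For 6 genes limma's test of the difference itself found the sets unlike, as described above. On the log2 scale, set 2 minus set 1 was -1.72 for 2210409E12Rik, -1.49 for Vldlr, -1.16 for Ier3, -1.09 for Sox7, -1.08 for Tgfbi and -0.96 for Emp1.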

How the results depend on the processing

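The shared counts of 124 higher and 134 lower genes held within 1.5 times under a stricter background limit, no filter, quantile or median scaling and the median of a gene's probes. The deposited arrays already had nearly the same distribution, with medians of 21.68 to 22.04 and a maximum of 24578.05 on each. Quantile and median scaling could therefore change little, and they do not check the normalization. With each array left out in turn they ranged from 121 to 130 and from 130 to 144. They were 46 and 33 at 2-fold, 865 and 1034 with no overlap alone, 66 and 53 with a pseudocount of 64, and 37 and 41 with Sox17(+) 1 placed among the low arrays; a pseudocount of 4 gave 210 lower genes. The 8 probes called between the sets became 17 with a pseudocount of 4, 118 with 64, 35 without the filter, 121 with an intensity trend, 1 with Sox17(+) 1 among the low arrays, and 0 to 5 with each array left out. With the description number as a replicate block limma called 0 (1662 at an unadjusted p under 0.05). Whether those numbers mark pairs could not be settled. Deviations of same-numbered arrays from their group means correlated by -0.168 to 0.054 in 12 pairs, and no pair was over 0.1. In a group of 2 arrays the deviations mirror each other, so these correlations are not independent and cannot exclude a pairing. For the 6 genes called between sets, 65 alternative fits missed the threshold, 43 passed it and 0 changed sign. Named genes' mean differences moved by more than the residual SD in 156 recomputations and by less in 1874, most often with another pseudocount or with Sox17(+) 1 moved, and 0 genes of the programme changed sign. The causes were not tested.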

Other observations

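Several gene groups of the programme lie outside the lists, and were picked here after their values were seen, so they are given as values only. Among class I histocompatibility genes, H2-Q7 (-0.91 in set 1 and -0.84 in set 2), H2-M3 (-0.68 and -1.04), H2-Bl (-0.74 and -0.85) and H2-Q8 (-0.75 and -0.61) were lower on the Col4a1-high arrays. H2-K1 (-0.66 and -0.61), H2-D1 (-0.65 and -0.49) and B2m, their shared light chain (-0.49 and -0.63), lay on the same side without meeting the rule. These genes are near-identical in stretches, and cross-hybridisation between them was not tested.

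Genes of cell signalling lay on both sides. Wnt5a, a non-canonical Wnt ligand, was higher (2.17 and 1.19), as were Bmp6 (1.42 and 1.23), the serine protease Htra1 (1.75 and 1.33), Slit2 (0.82 and 1.24), the EGF-family ligand Hbegf (0.85 and 0.70) and Igf1 (0.65 and 0.70). Lower were the chemokine Cxcl12 (-1.37 and -0.86), the membrane-anchored Notch ligand Jag1 (-0.75 and -1.31), the membrane-anchored ephrin Efnb2 (-0.88 and -1.52), Pdgfc (-0.59 and -0.96) and the IGF-binding proteins Igfbp2 (-0.66 and -1.02) and Igfbp4 (-0.71 and -0.82). The metalloreductases Steap1 (-0.98 and -1.64) and Steap2 (-1.18 and -1.62) and the thioredoxin inhibitor Txnip (-1.21 and -1.02) were lower too.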
